A study of Mus musculus with 10 samples.

Results

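The genes of fatty acid uptake and oxidation were followed in mosaic Hccs-deficient and control embryonic mouse hearts. The set had 34 genes, chosen from a fixed list of symbols that covers uptake, activation, carnitine transfer and the oxidation spiral in the mitochondrial matrix. A gene was measured where a probe set of the array carried its symbol alone, and where several did, the brightest over the 10 arrays stood for the gene. This gave 32 of the 34 genes, out of 18193 genes on the array. Acsl1 and Cpt1b, the muscle form of the carnitine palmitoyltransferase of the outer membrane, were not analysed here.

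A fatty acid enters the cell with the help of membrane proteins, is joined to coenzyme A, and crosses the inner mitochondrial membrane as a carnitine ester. In the matrix it is shortened in repeated rounds by a dehydrogenase, a hydratase, a second dehydrogenase and a thiolase. Electrons of the first dehydrogenase pass through the electron transfer flavoprotein to ubiquinone, upstream of the respiratory complexes that need cytochromes c1 and c. Hccs makes the haem lyase that gives these cytochromes their haem. The adult heart burns mainly fatty acids, while the heart before birth draws more on glucose and lactate.

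The knockout hearts carried a heart-conditional heterozygous knockout of Hccs, and the others were control littermates. All embryos were female and 13.5 days post coitum old. Each array was hybridised with RNA of 4 to 5 pooled whole hearts of the same genotype, with 5 arrays for each genotype. Hccs lies on the X chromosome, so a heterozygous female heart is a mosaic, and the values are averages over cells of both kinds. The sources used here give neither the driver of the conditional deletion nor the alleles of the controls. All p-values measure the spread between these pools. Fewer cells of a type and less RNA per cell cannot be told apart in such whole hearts.

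The values are log2 signals, so a difference of 1 is a 2-fold difference, and array medians lay between 3.65 and 3.76. Hccs itself was at 10.68 ± 0.20 in knockout hearts and 11.23 ± 0.08 in control hearts (mean ± SD, n = 5 each, exact two-sided permutation p = 0.00794, the smallest that these arrays allow). Its log2 change of -0.55 had a limma adjusted p of 0.0225, which was 0.0517, 0.0563, 0.0511 and 0.0511 without knockout replicate 2, knockout replicate 4, control replicate 2 or control replicate 3. Cardiomyocyte markers were bright in both genotypes. Of the 15, 5 fell, none rose and the other 10 missed the threshold, where 0.945% of all genes were called lower. Their mean signal ran from 14.6 to 14.8 in knockout hearts and from 14.9 to 15.1 in control hearts. Of 7 epicardial markers 1 rose, Tcf21, by 0.61 on the log2 scale (limma adjusted p = 0.0376), where 1.63% of all genes were called higher. Hepatocyte markers varied from pool to pool. The mean of 6 of them ran from 4.13 to 8.56 in knockout hearts and from 4.24 to 6.79 in control hearts, highest in knockout replicates 4 and 5. Of these, Afp ran from 8.78 to 14.5 in knockout hearts and from 8.94 to 12.7 in control hearts. Alb was dimmer, from 2.29 to 7.39 and from 2.26 to 5.04, and Fgb ran from 2.11 to 4.51 and from 2.05 to 2.15. Which tissue gave these transcripts was not tested. None of 3 adipocyte markers passed and their mean stayed below the array medians. The 18S ribosomal RNA control at the 5′ end ran from 7.84 to 8.57 in knockout hearts and from 8.06 to 11.4 in control hearts (exact two-sided permutation p = 0.0238, n = 5 each). The controls at the middle and the 3′ end averaged 7.99 and 8.38 in knockout hearts and 8.95 and 9.16 in control hearts, with exact permutation p of 0.0794 and 0.222. The part of these differences in the results that follow was not tested.

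Transcripts of the oxidation machinery were for the most part at similar levels in both genotypes. Of the 32 genes 1 rose, none fell and 31 did not pass a limma adjusted p of 0.05. Over all 18193 genes 2.58% passed, 1.63% higher and 0.945% lower in the knockout hearts, so 1 call among 32 is close to that background. The gene that rose was Hadhb, which encodes the beta subunit of the mitochondrial trifunctional protein, and that call came from only 1 of its 3 probe sets. An unadjusted p under 0.05 was reached by 7 genes, 4 higher and 3 lower, where 20.6% of all genes reached it, 13.2% higher and 7.48% lower. The groups did not overlap for 1 gene, again Hadhb, against 5.79% of all genes.

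The sizes of the differences were small. The log2 changes, knockout minus control, ran from -0.37 for Acacb to 0.59 for Hadhb, and 23 of the 32 lay within 0.2 of 0. The median was -0.035, and 23 changes were negative and 9 positive. The sign of 14 genes turned in at least 1 alternative processing. Over all genes the median was 0.025, and 60.5% were positive. For 23 genes the whole 95% interval lay within 0.5 log2 units of 0.

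**Figure D1:**
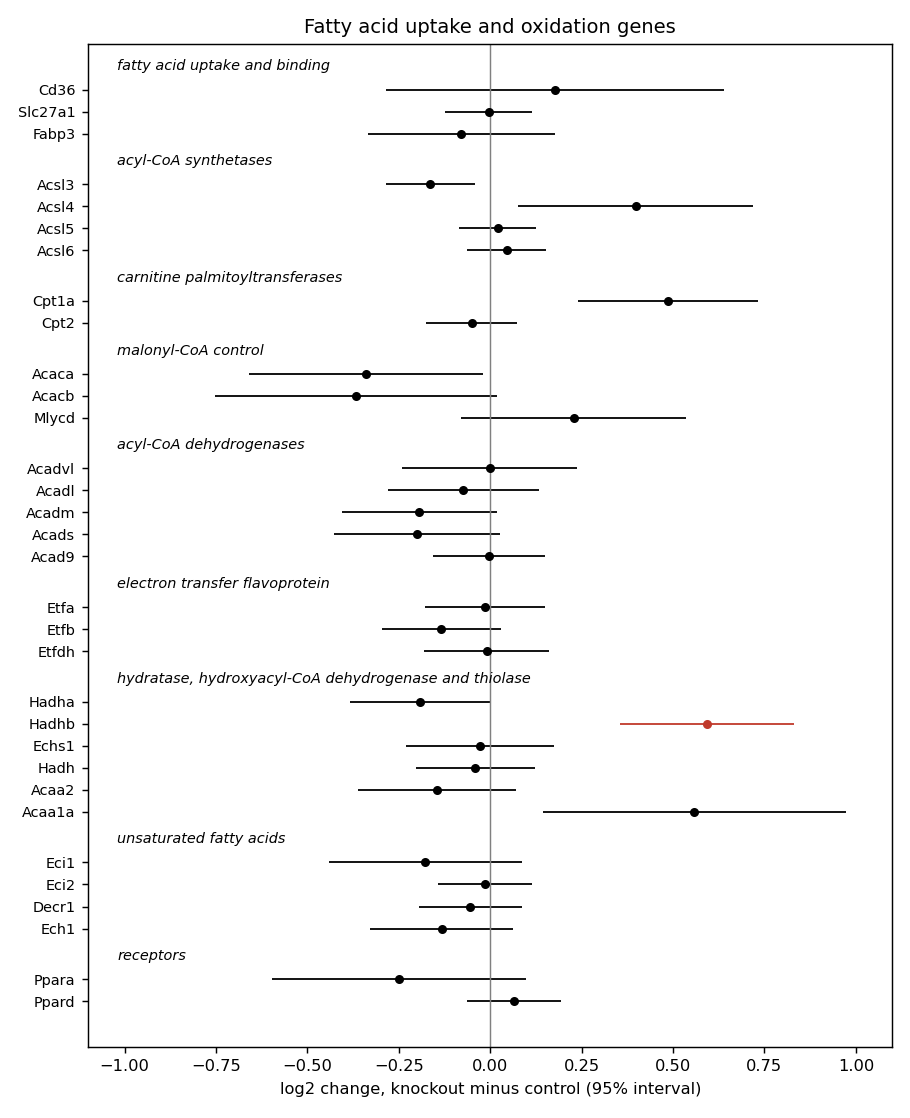
Log2 change (x axis, knockout minus control) of the 32 measured genes, grouped by role down the page. Points are limma estimates and bars 95% intervals; the red point is Hadhb at 0.59, the gene past an adjusted p of 0.05, and most others lie within 0.2 of 0.

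Uptake and binding genes did not pass. Fabp3, the fatty acid binding protein of heart and muscle cytosol, was at 13.33, 13.36, 13.08, 13.40 and 12.81 in knockout replicates 1 to 5, against 13.16, 13.44, 13.20, 13.29 and 13.29 in control replicates 1 to 5. The groups overlapped, with knockout replicate 5 lowest of all. The log2 change of Fabp3 was -0.079 (SE 0.11, limma adjusted p = 0.717). Cd36, a scavenger receptor that carries long-chain fatty acids across the plasma membrane, was at 11.01, 11.12, 10.82, 11.01 and 9.997 in knockout hearts, against 10.52, 10.79, 10.28, 10.72 and 10.76 in control hearts. Knockout replicates 1 to 4 lay above every control and knockout replicate 5 below every control, and the log2 change of 0.18 had a 95% interval of -0.29 to 0.64. Its other probe sets gave 0.091 and -0.056, and both were also lowest of all arrays in knockout replicate 5 (7.74 and 6.35). Without knockout replicate 5 the log2 change of Cd36 was 0.37, with a limma adjusted p of 0.136. Cd36 is also made by endothelial cells and macrophages. Of their 10 and 6 markers none passed, with median log2 changes of -0.20 and 0.0026 and with 6 and 3 negative. The part of these cells in the Cd36 values was not tested. Slc27a1, a fatty acid transport protein, differed by -0.0046 (95% interval -0.12 to 0.11). The second, dimmer Slc27a1 probe set was at 3.82, 3.66, 3.61, 5.66 and 5.11 in knockout hearts and at 5.60, 5.91, 5.57, 6.13 and 4.70 in control hearts, a log2 change of -1.21 with an adjusted p of 0.183 over all probe sets. Of the knockout values 3 were close to the array medians.

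Acyl-CoA synthetases, which trap a fatty acid as its coenzyme A ester, gave 3 positive changes and 1 negative one, and none passed. Acsl4, which prefers arachidonic acid, was at 9.65, 10.38, 10.18, 10.23 and 10.11 in knockout hearts, against 9.65, 9.92, 9.86, 9.76 and 9.37 in control hearts. All knockout values but that of replicate 1 were above every control. The log2 change was 0.40 (SE 0.14, limma adjusted p = 0.164), and without knockout replicate 1 it was 0.51 with a limma adjusted p of 0.0343. Acsl4 passed in only that 1 of 23 alternatives, among which the highest limma adjusted p was 0.946. The third Acsl4 probe set had a log2 change of 0.50 and the second 0.042, both without a call. For Acsl3, a synthetase of the endoplasmic reticulum and lipid droplets, the log2 change was -0.16 (SE 0.055, adjusted p = 0.14 by limma), and its other probe sets gave 0.24 and 0.11. Acsl5, a synthetase found on mitochondria, was at 10.90, 10.86, 10.93, 10.92 and 10.85 in knockout hearts and at 10.86, 10.93, 10.77, 10.80 and 11.00 in control hearts. Its values overlapped throughout, with a log2 change of 0.020 and a 95% interval of -0.084 to 0.12. Acsl6, known from brain, lay below the array medians at 2.69 in knockout hearts and 2.64 in control hearts.

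At the carnitine step the data differed between the genes and between probe sets. Cpt1a encodes the liver form of the outer membrane transferase that commits a fatty acid to oxidation and is inhibited by malonyl-CoA. Its signal was 9.09, 9.62, 9.31, 9.63 and 9.33 in knockout hearts, against 9.13, 8.91, 8.88, 8.85 and 8.77 in control hearts. Knockout replicates 2 to 5 were above all controls, and knockout replicate 1 was just below control replicate 1. The log2 change was 0.49 (SE 0.11), a 1.40-fold level, and the limma adjusted p of 0.0521 did not pass. Over 23 alternatives the limma adjusted p of Cpt1a ran from 0.0155, without knockout replicate 1, to 0.176, and it passed in 6 of them. The other Cpt1a probe set of the same type, the dimmest of the 3, had a log2 change of 0.36. The remaining probe set had 0.073 with a 95% interval of -0.12 to 0.26. That remaining probe set was at 9.02, 8.73, 8.66, 8.82 and 8.56 in knockout hearts, against 8.63, 8.83, 8.69, 8.56 and 8.71 in control hearts. Knockout replicate 1, the lowest knockout in the brightest probe set, was the highest of all arrays in this one. The mean of the hepatocyte markers was highest in knockout replicates 4 and 5. With that mean as a covariate, added after seeing the data, the log2 change of Cpt1a was 0.48. The part of these transcripts in the Cpt1a values was not tested. Cpt2, the transferase of the inner membrane that restores the coenzyme A ester, was at 10.12, 9.92, 9.91, 9.92 and 9.95 in knockout hearts and at 9.91, 10.02, 10.14, 9.95 and 10.06 in control hearts. These groups overlapped, and the log2 change of Cpt2 was -0.051 (95% interval -0.18 to 0.074).

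Malonyl-CoA is made by the acetyl-CoA carboxylases, of which Acaca also feeds fatty acid synthesis and Acacb sits at the mitochondrial surface, and it is broken down by the decarboxylase Mlycd. None of the 3 genes passed. Acacb was at 7.78, 7.29, 7.10, 7.57 and 7.49 in knockout hearts, against 7.76, 7.996, 8.25, 7.70 and 7.36 in control hearts. Acaca was at 7.52, 6.92, 7.34, 7.26 and 7.51 in knockout hearts, against 7.87, 7.56, 7.90, 7.63 and 7.29 in control hearts. Only control replicate 5 lay among the knockouts for Acaca, while the groups of Acacb overlapped more widely, with knockout replicate 1 above control replicates 1, 4 and 5. The log2 changes were -0.37 for Acacb and -0.34 for Acaca, with limma adjusted p of 0.261 and 0.219. Mlycd was at 6.46, 6.38, 6.26, 6.31 and 6.45 in knockout hearts, against 5.60, 6.11, 6.27, 6.35 and 6.39 in control hearts, with a log2 change of 0.23 (limma adjusted p = 0.372). Control replicate 1 was the lowest value, and without it the log2 change of Mlycd was 0.091 (limma adjusted p = 0.484).

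**Figure D2:**
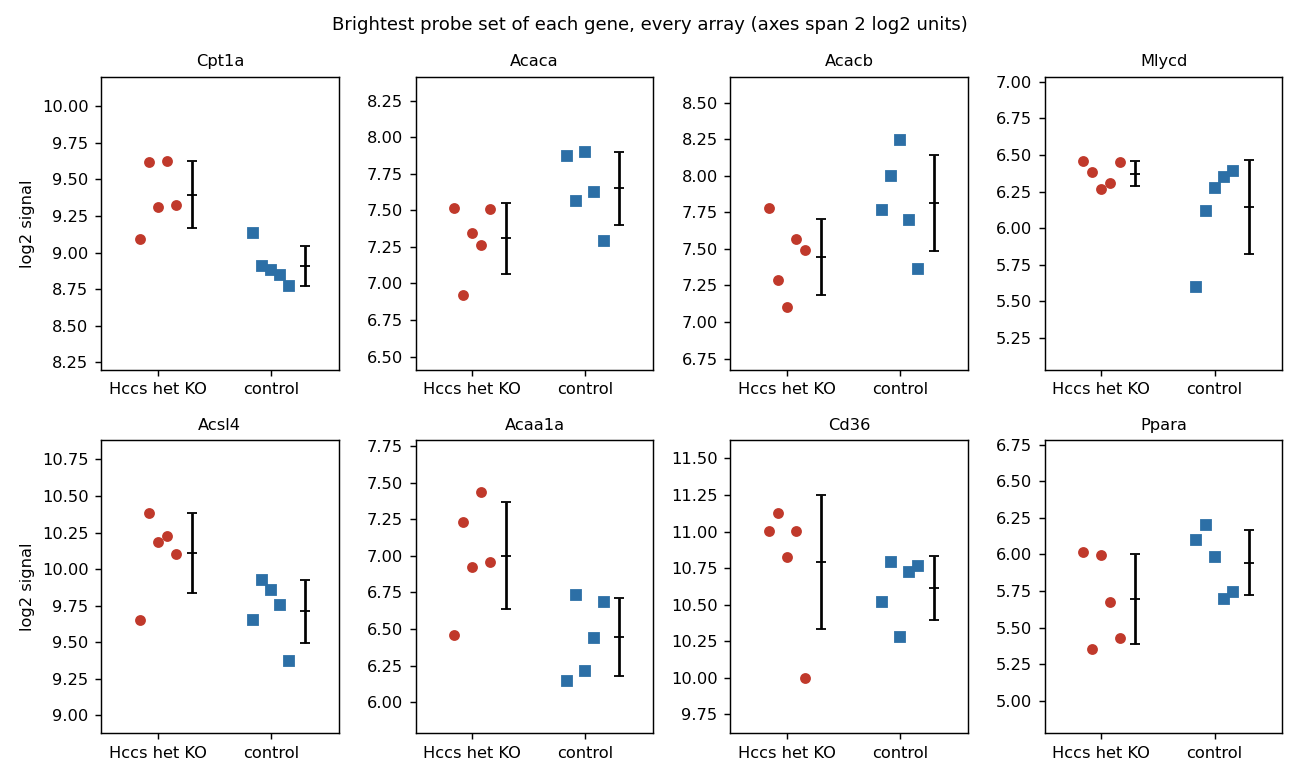
Log2 signal (y axis) of 8 genes on every array, with Hccs het KO hearts (red circles) left of control hearts (blue squares) and the mean with SD as a black bar beside each group. Knockout replicates 2 to 5 of Cpt1a lie above all controls, the carboxylase groups overlap, and Cd36 has 1 low knockout value at 9.997.

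The acyl-CoA dehydrogenases open each round of oxidation and differ in the chain length they take. All 5 log2 changes were negative, from -0.20 for Acads to -0.0010 for Acadvl, and none passed. Acadl, the long-chain enzyme, was at 13.96, 13.82, 13.57, 13.91 and 13.56 in knockout hearts, against 13.65, 13.84, 13.86, 13.88 and 13.96 in control hearts. Knockout replicates 3 and 5 were the lowest values and the others lay among the controls. Acadm, the medium-chain enzyme, averaged 12.20 ± 0.22 in knockout hearts and 12.39 ± 0.06 in control hearts (SD, n = 5 each), a log2 change of -0.19 (SE 0.094 and adjusted p = 0.277 by limma). Acads, the short-chain enzyme, averaged 8.78 ± 0.21 in knockout hearts and 8.98 ± 0.12 in control hearts. Acadvl, the very-long-chain enzyme of the inner membrane, averaged 10.69 ± 0.22 in knockout hearts and 10.69 ± 0.13 in control hearts. Acad9, known also as an assembly factor of complex I, had a log2 change of -0.0029 by its brightest probe set and of 0.32 by its second (adjusted p = 0.0908 over all probe sets), with -0.069 by its dimmest. That second probe set was at 8.80, 8.62, 8.55, 8.48 and 8.47 in knockout hearts and at 8.29, 8.48, 8.11, 8.13 and 8.30 in control hearts, where only control replicate 2 reached the knockouts.

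The electron transfer flavoprotein and its oxidoreductase hand the electrons of these enzymes to ubiquinone. Etfa, the alpha subunit, was at 13.16, 13.15, 12.99, 13.19 and 12.90 in knockout hearts and at 13.04, 13.03, 12.97, 13.23 and 13.20 in control hearts. The groups overlapped over nearly their whole range. The log2 changes were -0.014 for Etfa, -0.13 for the beta subunit Etfb and -0.0096 for the oxidoreductase Etfdh, with limma adjusted p of 0.927, 0.325 and 0.952. The 95% interval of Etfdh ran from -0.18 to 0.16.

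Hadha and Hadhb encode the alpha and beta subunits of the trifunctional protein, which holds the hydratase, hydroxyacyl-CoA dehydrogenase and thiolase for long chains. They lie head to head on mouse chromosome 5, so that 1 stretch of DNA is the upstream region of both. In RefSeq on GRCm38.p6 the stretch between their starts is chr5:30154981-30155252, 272 bases with 60.3% G and C, and it is shown because both genes are read out from it in opposite directions. It is written on the plus strand, on which Hadhb starts just after the last base and Hadha starts, on the minus strand, just before the first. Capitals mark GGGCGG, the GC box bound by Sp1-type factors, which occurs 2 times, its first base lying 90 and 25 bases before the Hadhb start.
Hadha-Hadhb stretch: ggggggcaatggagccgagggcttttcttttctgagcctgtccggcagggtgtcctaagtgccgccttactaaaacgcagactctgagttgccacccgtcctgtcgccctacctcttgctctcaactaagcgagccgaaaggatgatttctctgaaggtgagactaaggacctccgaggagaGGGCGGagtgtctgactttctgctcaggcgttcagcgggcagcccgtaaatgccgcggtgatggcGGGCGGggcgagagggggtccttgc
Of the other motifs searched on both strands, AGGTCA (the core of many nuclear receptor sites), CCAAT and CACGTG (the E-box) are not among these letters.

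Hadhb was called higher in the knockout hearts by its brightest probe set. That probe set was at 12.99, 13.46, 13.41, 13.52 and 13.12 in knockout hearts, against 12.63, 12.69, 12.86, 12.77 and 12.59 in control hearts. The lowest knockout value was above the highest control value. The log2 change was 0.59 (SE 0.11), a 1.51-fold level, with a limma adjusted p of 0.0270. The second probe set of Hadhb, also well above the array medians, was at 13.16, 12.94, 12.72, 12.98 and 12.82 in knockout hearts, against 12.87, 12.90, 12.88, 13.01 and 13.09 in control hearts. Here the groups overlapped, and the log2 change was -0.026 with a 95% interval of -0.21 to 0.15. The third and dimmest probe set was at 4.43, 4.47, 4.45, 4.47 and 4.68 in knockout hearts, against 5.46, 5.70, 5.84, 4.45 and 4.37 in control hearts, and had a log2 change of -0.66 that did not pass (adjusted p = 0.242 over all probe sets). Only control replicates 1 to 3 stood above the knockouts in it. The gap between the brightest and the second probe set was -0.17, 0.52, 0.69, 0.54 and 0.30 in knockout hearts and -0.24, -0.21, -0.024, -0.24 and -0.50 in control hearts. Its mean was 0.38 in knockout hearts and -0.24 in control hearts, a description with no test, since the gap was looked at after the values of both probe sets were seen.

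The call of Hadhb also depended on the arrays kept. Its limma adjusted p was 0.0619, 0.0611 and 0.0617 without knockout replicate 2, 3 or 4, and 0.0641, 0.0604, 0.0511 and 0.0547 without control replicate 1, 2, 3 or 4. It was 0.0068 without knockout replicate 1. With the hepatocyte marker mean as a covariate, added after seeing the data, it was 0.0425, with a log2 change of 0.59. The part of the hepatocyte marker transcripts in the Hadhb values was not tested.

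Hadha, the partner gene, did not pass. Its single probe set was at 11.67, 11.71, 11.30, 11.58 and 11.39 in knockout hearts, against 11.66, 11.75, 11.80, 11.58 and 11.82 in control hearts. Knockout replicates 3, 4 and 5 were below every control, replicate 4 only just (11.58 against 11.5808 in control replicate 4). The log2 change was -0.19 (SE 0.086, limma adjusted p = 0.24).

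**Figure D3:**
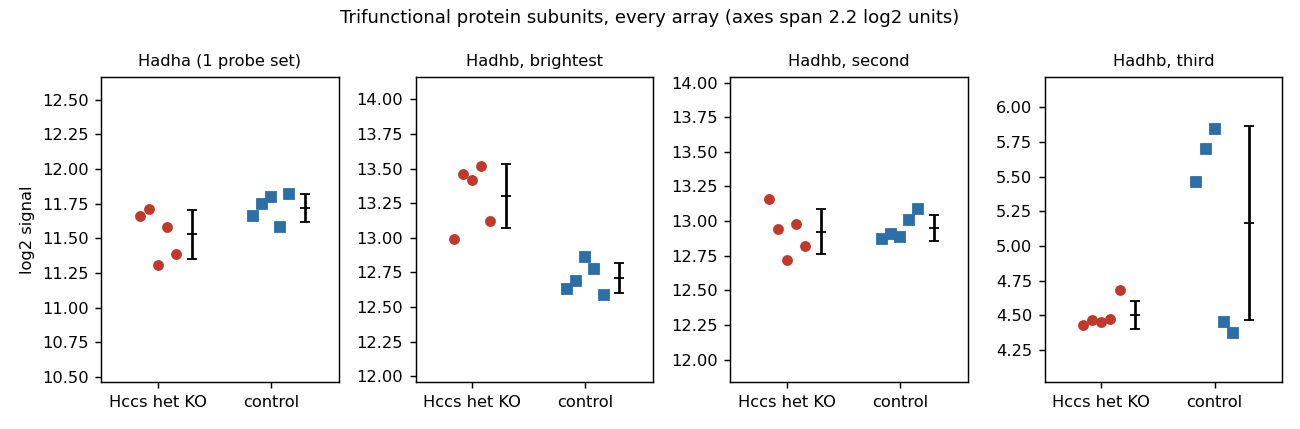
Log2 signal (y axis) of the Hadha probe set and of the 3 Hadhb probe sets on every array, with Hccs het KO hearts (red circles) left of control hearts (blue squares) and mean with SD as black bars. The groups are apart only for the brightest Hadhb probe set, with log2 changes of 0.59, -0.026 and -0.66 for its 3 probe sets.

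Other enzymes of the middle and last steps did not pass. Hadh, the hydroxyacyl-CoA dehydrogenase for short and medium chains, was at 14.03, 14.04, 13.91, 14.19 and 14.03 in knockout hearts and at 14.00, 14.20, 13.89, 14.10 and 14.22 in control hearts. The groups overlapped, with a log2 change of -0.040 (SE 0.073). Echs1, the short-chain hydratase, and Acaa2, the mitochondrial thiolase, had log2 changes of -0.029 and -0.15 with limma adjusted p of 0.876 and 0.414. Acaa1a, a thiolase of peroxisomes, was at 6.46, 7.23, 6.93, 7.43 and 6.96 in knockout hearts, against 6.14, 6.73, 6.21, 6.44 and 6.68 in control hearts. Its knockout replicate 1 lay among the controls and the others above them. The log2 change was 0.56 (SE 0.19, limma adjusted p = 0.14), and without knockout replicate 1 it was 0.69 with a limma adjusted p of 0.0384. Acaa1a passed in only that 1 of 23 alternatives, among which the highest limma adjusted p was 0.35. Acaa1a has a close relative in mouse, Acaa1b, and where the probes lie was not analysed here.

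The 4 enzymes that prepare unsaturated fatty acids for the spiral all had small negative changes without a call. Eci2, an enoyl-CoA isomerase, was at 11.38, 11.62, 11.57, 11.65 and 11.49 in knockout hearts and at 11.52, 11.63, 11.49, 11.51 and 11.64 in control hearts, which overlapped. Eci1, the mitochondrial isomerase, had a log2 change of -0.18, Ech1, a dienoyl-CoA isomerase, of -0.13 and Decr1, the dienoyl-CoA reductase, of -0.054. Their limma adjusted p were 0.417, 0.415 and 0.643.

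The nuclear receptors that switch on many of these genes did not pass. Ppara, the main receptor of oxidation genes in heart and liver, was at 6.02, 5.36, 5.998, 5.68 and 5.43 in knockout hearts, against 6.10, 6.20, 5.98, 5.70 and 5.74 in control hearts. The lowest values were those of knockout replicates 2 and 5, and the groups overlapped. The log2 change was -0.25 (95% interval -0.60 to 0.098, limma adjusted p = 0.387), and its other probe sets had 0.11 and 0.017. Ppard, the widely expressed form, had a log2 change of 0.065 (limma adjusted p = 0.541).

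Many of the mitochondrial oxidation enzymes shared their array-to-array differences. Over the 17 genes of the dehydrogenase, flavoprotein, hydratase to thiolase and unsaturated groups, 16 had a negative log2 change and Hadhb a positive one. Acaa1a, a thiolase of peroxisomes with a log2 change of 0.56, was left out of these 17. Some of the negative changes were close to 0. With median centring those of Acadvl, Acad9, Etfa, Etfdh and Eci2 turned positive, from 0.0015 to 0.015, without a call. Knockout replicate 3 gave the lowest knockout value for 8 of the 17 and knockout replicate 5 for 7, while control replicate 5 gave the highest control value for 15. The spread was larger among knockout pools than among control pools for 15 of these 17 genes, and for 24 of all 32, against 47.9% of all genes. Deviations from the group means had a median pairwise correlation of 0.66 over the 10 arrays among the 16 genes other than Hadhb, from -0.27 to 0.94, values that share their RNA pool and hybridisation. The brightest Hadhb probe set had a median correlation of -0.048 with them. These 16 genes had a median correlation of 0.23 with the cardiomyocyte markers. No such value over all genes is given here. The mean deviation over the 32 genes was 0.051, 0.064, -0.082, 0.089 and -0.13 in knockout replicates 1 to 5, against -0.064, 0.040, -0.017, -0.000031 and 0.049 in control replicates 1 to 5. The knockouts thus spanned the controls on both sides. The same mean over the 15 cardiomyocyte markers was below every control in all 5 knockout pools, and the median log2 change of these markers was -0.23.

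**Figure D4:**
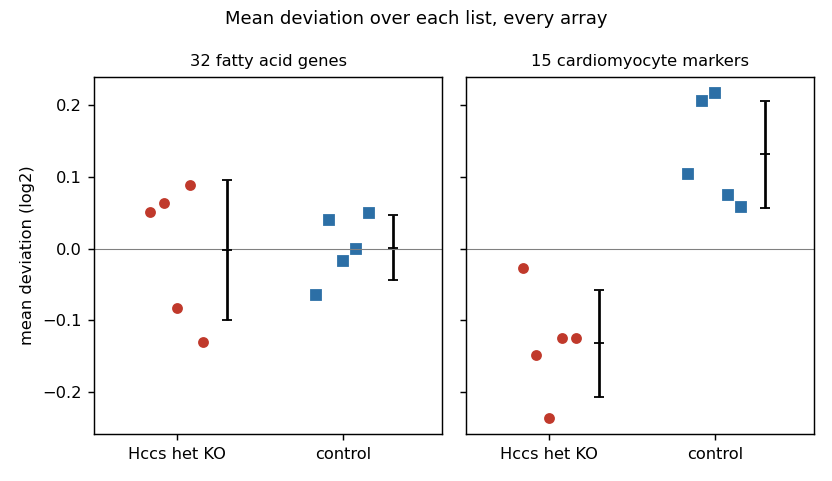
Mean deviation from each gene's 10-array mean (y axis, log2) on every array, for the 32 fatty acid genes (left) and 15 cardiomyocyte markers (right), with Hccs het KO hearts (red circles) left of control hearts (blue squares) and mean with SD as black bars. The fatty acid genes overlap between -0.13 and 0.089, while the cardiomyocyte markers of the groups do not overlap.

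Probe sets of the same gene often differed. Of the 20 genes with several probe sets 10 had both positive and negative log2 changes, and of the 61 probe sets 1 was called higher and none lower, where 1.71% of all probe sets with 1 symbol were called, 1.23% higher and 0.481% lower. Beside the brightest probe sets, further ones gave log2 changes of 0.024 for Fabp3, 0.18 for Acadl and 0.092 for Etfdh, all below the array medians, and of -0.13 and 0.29 for Hadh, none with a call. The largest positive changes other than that of Acsl4 came from 1 type of probe set. Probe sets whose name ends in _x_at hold probes that can also match other transcripts, and such a probe set stood for Cpt1a, Hadhb, Hadh and Acaa1a, of which 3 had positive changes. Of the 8 probe sets of this type in the list 5 had a positive change, against 20 of the other 53. Over all probe sets with a mean signal above 8, those of this type had a median log2 change of 0.080 and 5.04% were called higher, against 0.0034 and 1.86% for those ending in plain _at. The other types were shifted upward too, with a median of 0.047 and 4.17% called higher for _a_at, and 0.048 and 3.04% for _s_at. The median deviation of this type on each array was -0.045, 0.056, 0.045, 0.053 and 0.086 in knockout hearts and -0.040, -0.030, -0.092, -0.033 and -0.0091 in control hearts. Knockout replicate 1 was the knockout pool that lay with the controls. It did so for Cpt1a and Acaa1a, which were read by this type, and for Acsl4, which was read by a plain _at probe set. For Hadhb it was the lowest knockout value but above every control. In the second probe sets of Cpt1a and Hadhb, both plain _at, knockout replicate 1 was instead the highest of all arrays (9.02 and 13.16). The part of probe set type in these results was not tested.

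**Figure D5:**
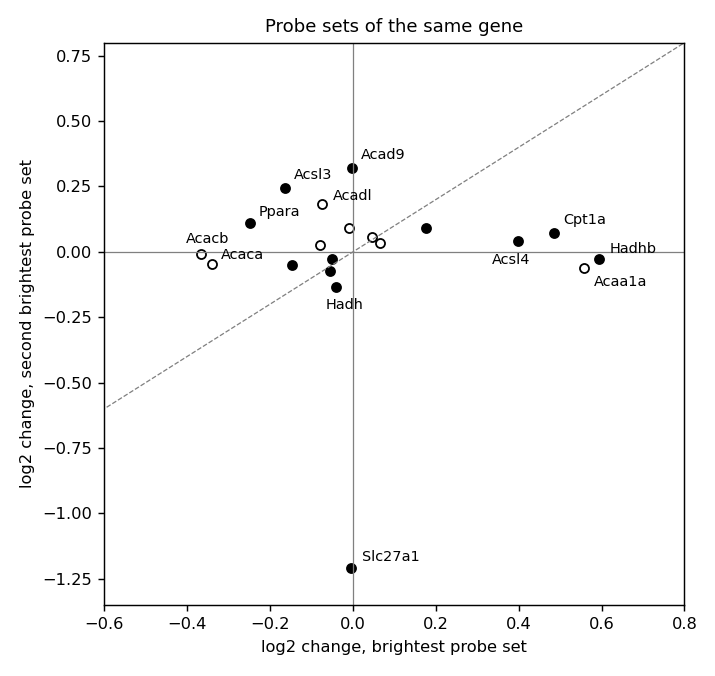
Log2 change (knockout minus control) of the brightest (x axis) against the second brightest probe set (y axis) of the 20 genes with several. Open circles have a second probe set below the highest array median of 3.76, the dashed line marks equal changes, and Hadhb, Cpt1a, Acsl4 and Acaa1a lie far to the right with second changes near 0.

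Further genes of lipid supply and use were read from a list of 93, of which 83 were measured. Of these 2 rose and none fell, while 81 missed the threshold, and the median log2 change was 0.032. Over all genes 2.58% passed, 1.63% higher, so 2 of 83 is close to that background. Bdh1, a mitochondrial enzyme of ketone body conversion, was at 8.13, 8.26, 7.79, 7.93 and 8.36 in knockout hearts, against 7.35, 7.46, 7.79, 7.47 and 7.37 in control hearts. Only control replicate 3 reached the knockouts. Bdh1 rose by 0.61 on the log2 scale (SE 0.12, 1.52-fold, limma adjusted p = 0.0376), and its second, dim probe set had 1.05 without a call. The limma adjusted p of Bdh1 was 0.0852, 0.0629 and 0.0674 without knockout replicate 2, 4 or 5, and 0.0866, 0.0763, 0.0821 and 0.0643 without control replicate 1, 2, 4 or 5. Oxct1, which activates acetoacetate for oxidation, had a log2 change of 0.10 (limma adjusted p = 0.43).

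Acot1, a cytosolic acyl-CoA thioesterase known as a PPAR target, was at 9.76, 9.60, 10.04, 10.0003 and 9.80 in knockout hearts, against 9.44, 9.26, 9.05, 9.48 and 9.50 in control hearts. All knockout values were above all controls. Acot1 rose by 0.49 on the log2 scale (SE 0.11, 1.40-fold, limma adjusted p = 0.0491). With 1 array left out it passed only without knockout replicate 1 (limma adjusted p = 0.0464), and otherwise the limma adjusted p ran from 0.0541 without control replicate 5 to 0.111 without knockout replicate 4. Acot1 has near-identical neighbours in its gene family, so its signal may be shared. The other 4 measured PPAR targets did not pass, among them Pdk4, the kinase that shuts pyruvate dehydrogenase, with a log2 change of 0.020 (95% interval -0.20 to 0.24).

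No group of the list beyond these had a call. The brightest genes of the other groups were Fabp5, a fatty acid binding protein (-0.11), Slc25a20, the carnitine-acylcarnitine carrier (-0.045), Hsd17b10, a short-chain hydroxyacyl-CoA dehydrogenase (-0.050), Flad1, which makes the flavin cofactor (0.18), Scp2, a peroxisomal thiolase and sterol carrier (0.35), Plin2, a lipid droplet coat protein (-0.0073), the coactivator Ppargc1a (-0.17) and the desaturase Scd2 (-0.099), all as log2 changes. Their limma adjusted p ran from 0.129 for Scp2 to 0.937 for Plin2. The 12 measured genes of peroxisomal oxidation had a median log2 change of 0.077 with 8 positive, and the 9 of uptake and trapping had a median of -0.18 with 2 positive.

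Promoter windows, from 250 bases before to 50 after the start, were found in RefSeq for 30 of the 34 genes, 35 windows in all. GGGCGG was present on either strand in 71.4% of these windows, against 35.7% of the 32851 windows of all genes. Counted by gene, it was present for 22 of the 30. Windows are not all separate, since those of Hadha and Hadhb share 228 bases. CCAAT was present in 51.4%, against 37.4% of all windows. AGGTCA was present in 7 of the 35 windows, against 16.3% of all, and CACGTG in 2.86%, against 7.15%. A match describes the letters of the window and says nothing about binding in these hearts.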

How the data were processed

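RNA of whole hearts was hybridised to Affymetrix arrays, 1 per pool. The authors deposited log2 signals per probe set; RMA and Partek made them, per the submitters' processing notes, with versions and background option not given in the sources used here. Signals are relative to the whole array, so a change of total RNA cannot be seen. The labels give no detection calls and no batches, and precision is limited by the number of arrays.

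Of 45101 probe sets 34945 carried 1 symbol in the platform annotation (symbols checked by Entrez number against RefSeq, with 0 changed), and the brightest stood for each of 18193 genes. R 4.3.3 with limma 3.58.1 fitted knockout minus control (genotype as sole term, moderated by eBayes at default settings, no filter on level, two-sided), with Benjamini-Hochberg adjustment over all genes and a threshold of 0.05. SE and 95% intervals are those of the moderated fit. Exact permutation tests enumerated all 252 splits. The fit was tested on simulated data.

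Members and lists were chosen with earlier results of these data known. All members were named, of the 93 further genes those past the threshold and the brightest of each group that did not pass. Values per array are given for the brightest member of each role and those that passed, and for others chosen after their values were seen. Alternatives covered normalization, filters, probe set choice, the fit, a block, a covariate and left-out arrays. Plots used matplotlib 3.10.9.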

Additional observations from a re-analysis of the deposited data

Results flagged for a closer look

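In 3 of the groups of 5 arrays, 1 array stood apart from the rest by Dixon's criterion, which chance meets in about 1 in 20 groups; 70 groups were looked at. Cd36 was at 9.997 in knockout replicate 5, where the other knockout pools lay between 10.82 and 11.12. Cpt2 was at 10.12 in knockout replicate 1, where the others lay between 9.91 and 9.95. Bdh1 was at 7.79 in control replicate 3, where the others lay between 7.35 and 7.47.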

How the results depend on the processing

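All 24 alternatives kept the count of fatty acid genes called lower at 0. The median log2 change of the list was -0.035 in the main fit, -0.063 with quantile normalization and -0.018 with the most variable probe set. No pairing by replicate number was seen in the values. Deviations of same-numbered arrays correlated from -0.091 to 0.077, and 1 array correlated best with its own number. Whether same-numbered arrays shared a litter or handling was not tested. The count called higher was 1 with all arrays. It was 0 with the replicate number as a replicate block, with the mean of the probe sets, with the most variable probe set, at a threshold of 0.01, without the arrays numbered 3 of both genotypes, and with the second Hadhb probe set, an alternative chosen after seeing the data. It was 2 with median centring, with either filter on level, with eBayes with trend and robust, and with array weights, Cpt1a being the added gene. With 1 array left out it ran from 0 to 4. The log2 change of Hadhb was -0.032 with the mean of the probe sets, -0.66 with the most variable and -0.026 with the second probe set, none past the threshold.

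Of the 83 further genes 2 were called higher; it was 0 with the replicate block, with quantile normalization, at the threshold of 0.01 and with the hepatocyte marker mean as a covariate (added after seeing the data), 1 with median centring, with every probe set and without the arrays numbered 3, and 3 with either filter on level, with the most variable probe set, with eBayes with trend and robust, and with array weights. With 1 array left out it ran from 0 to 5. Of them 1 was called lower with array weights and 0 to 1 with 1 array left out. The log2 change of Hccs was -0.55 with the replicate block (limma adjusted p = 0.0735), -0.59 without the arrays numbered 3 (limma adjusted p = 0.0714) and from -0.60 to -0.48 with 1 array left out, where its call was lost without knockout replicate 2 or 4 and without control replicate 2 or 3 (limma adjusted p from 0.0511 to 0.0563). Of 730 recomputed values of single fatty acid genes 656 kept direction and call, 54 turned sign with no call on either side, 9 lost and 8 gained a call, and 3 turned sign against a call. The causes were not tested.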
